A study of Mus musculus with 8 samples.

Results

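The 31 genes described here encode the contractile apparatus of smooth muscle cells and the proteins that anchor, regulate or switch on that apparatus. They were taken as a list of gene names, and each gene was represented by its brightest probe over the 8 arrays of the study. All 31 had a probe, out of 36161 genes on the array, and all 31 were tested, out of 25335 genes tested. Every one of the 31 probes was well above background on all 8 arrays.

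The wall of the intestine holds an inner circular and an outer longitudinal layer of smooth muscle, with a thinner muscle sheet beneath the mucosa. In these cells calcium bound to calmodulin activates myosin light chain kinase, which phosphorylates the regulatory light chain of myosin and lets myosin pull on actin filaments. Smooth muscle actins, calponin, transgelin, desmin and smooth muscle myosin are widely used as markers of this cell type, and most of their genes are controlled by serum response factor (Srf) with its partner myocardin (Myocd).

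RNA was from the small intestine of mouse embryos at stage E18.5, with 4 controls and 4 mutants. Controls carried no Cre; control replicates 1, 3 and 4 were Rfx6 fl/+ and control replicate 2 was Rfx6 fl/fl. Mutants were Rfx6 fl/fl Ngn3-cre, in which the promoter of an endocrine progenitor gene drives the recombinase, so the deletion was aimed at endocrine cells and not at muscle. Rfx6 is a transcription factor that acts in endocrine cells, and the study asked which genes depend on it there. Every array held RNA of the intestine as a whole, so fewer muscle cells and less RNA per muscle cell cannot be told apart. Because the mutants alone carried Cre, Cre and loss of Rfx6 also cannot be told apart.

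Levels below are log2 intensities minus the 75th percentile of the same array, so a level of 0 is that percentile. That percentile lay between 788 and 1027 intensity units, and the share of probes detected well above background ran from 59.7% to 69.9%. The number of arrays limits the precision. The Rfx6 probe (chr10:51450116-51450175 in mm9) read −3.32, −3.20, −3.48 and −2.93 in controls 1 to 4. In mutants 1 to 4 it read −5.52, −3.37, −3.02 and −3.02, and the first of these was not well above background. The groups overlapped (difference −0.50, SE 0.52, limma adjusted p = 0.824), so this probe does not check the labels of mutants 2, 3 and 4. For those 3 samples the description fields give different Rfx genes, and the genotype was taken from the titles. All 4 are therefore called labelled mutants or, for short, mutants.

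No smooth muscle gene passed the test between labelled mutants and controls. The mean was higher in the mutants for 27 of the 31 genes (26 to 29 under other scalings of the arrays), against 57.1% of all genes tested, and the median difference was 0.15 against 0.03 over all genes. The count called was 0 of 31 (limma, Benjamini-Hochberg adjustment over all genes tested; adjusted p from 0.822 to 0.989), against 0.0592% of all genes. At an unadjusted p under 0.05 the count was also 0, against 5.32% of all genes, and the lowest unadjusted p was 0.149. Groups did not overlap for 0 of the 31 genes, against 4.66% of all genes. The largest absolute difference was 0.36, that of Hspb7 (1.28-fold). No 95% interval excluded 0, and the intervals together ran from 0.684-fold to 1.94-fold. Without control replicate 3 and mutant replicate 1, an alternative chosen after seeing the data, 9 of 31 were higher and the median difference was −0.039. Those arrays were the lowest control and the highest mutant for most of the 31 genes, so a fall in the difference followed from that choice.

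**Figure D1:**
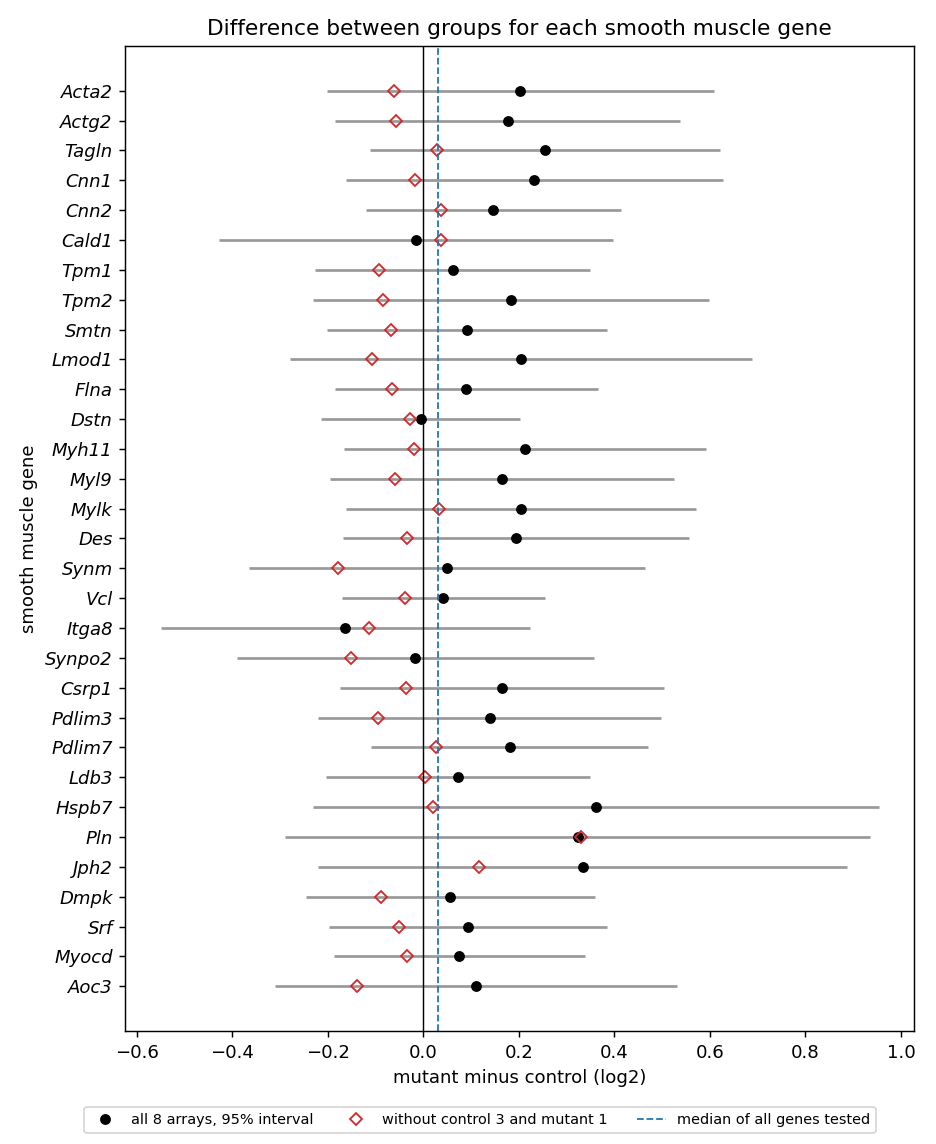
Difference between mutant and control means (log2, horizontal axis) for each of the 31 smooth muscle genes, with 4 arrays a group. Black points with bars give the fit to all 8 arrays and its 95% interval, open diamonds give the difference without control replicate 3 and mutant replicate 1, and the dashed line is the median of all genes tested (0.03); every bar crosses 0, and 22 of the 31 diamonds lie below it.

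The actins come first among the contractile proteins. Acta2, the smooth muscle alpha-actin, read 6.48, 6.59, 5.93 and 6.58 in controls 1 to 4 and 6.93, 6.56, 6.49 and 6.42 in mutants 1 to 4. Actg2, the gamma-actin that predominates in visceral muscle, read 6.98, 6.94, 6.44 and 6.98 in controls and 7.32, 7.0, 6.86 and 6.87 in mutants. For both actins control replicate 3 was the lowest array and mutant replicate 1 the highest, and the other 6 arrays lay between with the groups overlapping. The differences were 0.20 (SE 0.18) for Acta2 and 0.18 (SE 0.16) for Actg2. The probes of these near-identical actins shared no run longer than 6 bases, so each reads a different stretch of sequence.

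Proteins that bind and regulate the actin filament had the same array pattern. Tagln, which encodes the actin-bundling protein transgelin (SM22), read 5.85, 6.10, 5.58 and 6.13 in controls and 6.51, 6.07, 6.05 and 6.06 in mutants. Its difference was 0.26 (SE 0.16; unadjusted p = 0.149 and adjusted p = 0.822 by limma, the lowest of the list), and mutants 2, 3 and 4 fell inside the range of the controls. Cnn1, the calponin of differentiated smooth muscle that restrains actomyosin, read 5.57, 5.74, 5.09 and 5.81 in controls and 6.07, 5.73, 5.66 and 5.68 in mutants. Again control replicate 3 was lowest and mutant replicate 1 highest, and the difference was 0.23 (SE 0.17). Cnn2, a more widely expressed calponin, had a control mean of 2.45 ± 0.18 (SD, n = 4) and a mutant mean of 2.59 ± 0.12.

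Tropomyosins lie along the actin filament and govern its access to myosin. Tpm2, the beta-tropomyosin, read 4.92, 4.94, 4.25 and 5.0 in controls and 5.24, 4.94, 4.85 and 4.82 in mutants. Control replicate 3 was thus 0.70 below the mean of the other controls, while those 3 lay close together. Tpm1 had a control mean of 4.34 ± 0.19 and a mutant mean of 4.41 ± 0.16, and its 5 probes gave differences of 0.02 to 0.10. A second Tpm2 probe lies in another stretch of the transcript and read control replicate 3 lower by nearly as much (−0.58) and mutant replicate 1 higher by 0.35, against 0.37 on the first. Those probes, and that of Myh11 described next, are given here because they show the pattern on separate sequences; coordinates are in mm9, minus strand, for the probes as the array files place them.
Tpm2, first probe, chr4:43532262-43532321: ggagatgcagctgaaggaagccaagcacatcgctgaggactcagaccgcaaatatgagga
Tpm2, second probe, chr4:43531276-43531335: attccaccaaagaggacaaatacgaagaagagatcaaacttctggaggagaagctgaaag
Myh11, chr16:14202190-14202249: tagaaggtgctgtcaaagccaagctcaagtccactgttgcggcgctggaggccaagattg

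The motor and its switch followed the actins. Myh11, the smooth muscle myosin heavy chain, read 3.43, 3.42, 2.78 and 3.38 in controls and 3.69, 3.48, 3.39 and 3.30 in mutants. Controls 1, 2 and 4 lay between 3.38 and 3.43, mutant 3 lay inside that range, mutant 2 above it and mutant 4 below it. Myl9, the regulatory light chain that the kinase phosphorylates, read 7.26, 7.40, 6.81 and 7.36 in controls and 7.65, 7.39, 7.23 and 7.22 in mutants. Mylk, the kinase itself, read 2.13, 2.59, 2.17 and 2.60 in controls and 2.89, 2.61, 2.41 and 2.41 in mutants; here control replicate 1, not 3, was the lowest. The differences were 0.21 (SE 0.17), 0.16 (SE 0.16) and 0.21 (SE 0.16), and none passed the test.

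The remaining actin-filament proteins had smaller or less regular differences. Smtn (smoothelin, a marker of contractile cells) had means of 3.20 ± 0.16 in controls and 3.29 ± 0.20 in mutants. Flna, which cross-links actin and ties it to the membrane, had means of 5.93 ± 0.19 and 6.02 ± 0.13, a difference that changed sign (−0.0033) under quantile normalization. Dstn, an actin-depolymerising protein, had means of 4.81 ± 0.08 and 4.81 ± 0.10. Dstn, like Mylk and Ldb3, departed from the pattern of the controls. Its low array was control replicate 2, and control replicate 3 was 0.06 above the mean of the others. Lmod1, a leiomodin that nucleates actin filaments in muscle, was among the dimmest probes, at −3.37, −3.20, −3.98 and −3.25 in controls and −2.83, −3.24, −3.30 and −3.60 in mutants. Its extremes were again control replicate 3 and mutant replicate 1.

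Cald1, the actin-binding inhibitor caldesmon, read 0.45, 0.60, 0.10 and 0.55 in controls and −0.070, 0.65, 0.49 and 0.57 in mutants. Mutant replicate 1 was its lowest array, and the second Cald1 probe read that array lower as well, by 0.68 against 0.64 on the first. The difference between groups was −0.015 (SE 0.18), and under median scaling it was 0.00044.

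**Figure D2:**
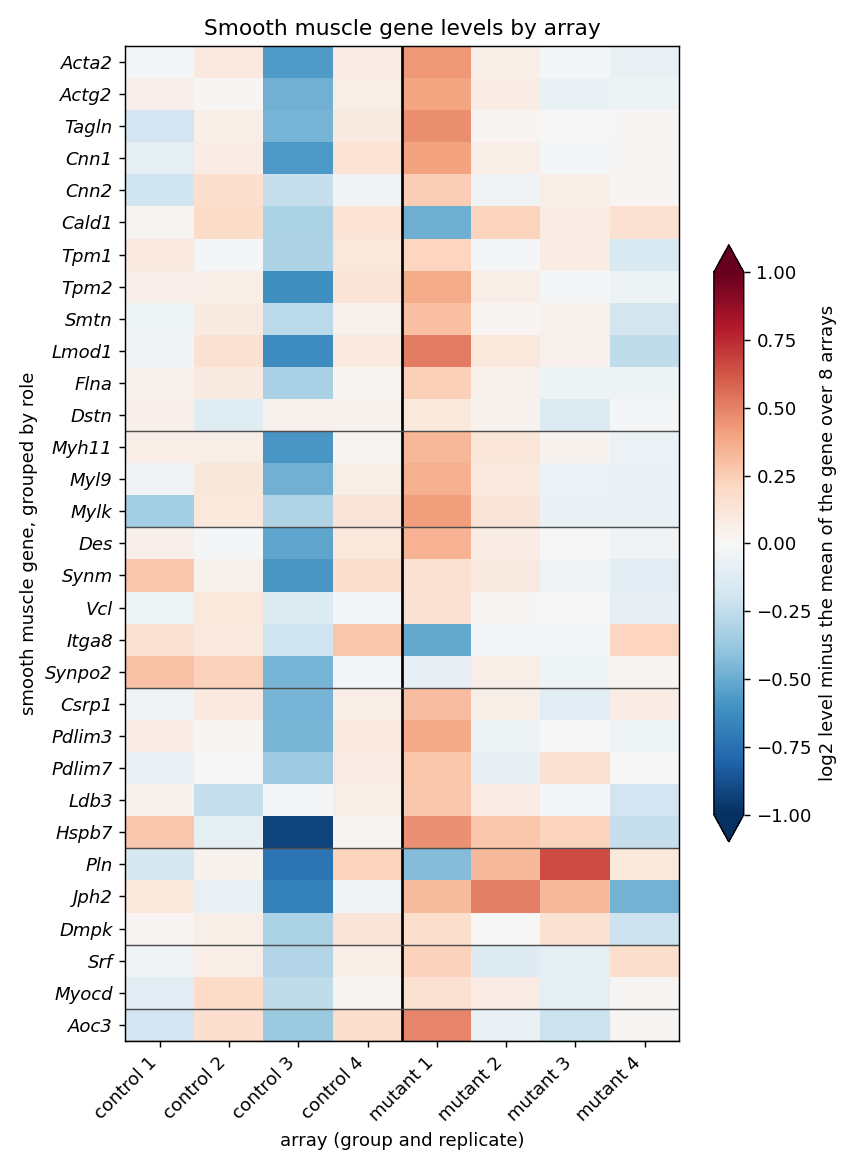
Level of each smooth muscle gene (rows, grouped by role) on each of the 8 arrays (columns), as log2 level minus the mean of that gene over the 8 arrays. Control 3 is the lowest array in 26 of the 31 rows and mutant 1 the highest in 24, with Cald1, Itga8 and Pln at the low end in mutant 1.

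Intermediate filaments and attachment proteins carry force from the contractile units to the cell surface. Des, which encodes desmin and was read by 10 spots an array, read 2.35, 2.28, 1.78 and 2.41 in controls and 2.65, 2.38, 2.30 and 2.27 in mutants. Control replicate 3 stood below every other array, and the other controls overlapped the mutants. Synm, the desmin partner synemin, had means of 1.30 ± 0.38 and 1.35 ± 0.12, and 4 of its 5 probes were higher in the mutants (differences from −0.02 to 0.07). Vcl, the adhesion-plaque protein vinculin, had means of 1.80 ± 0.10 and 1.84 ± 0.10. Synpo2, an actin-bundling protein of the Z-line and dense bodies, had means of 2.66 ± 0.35 and 2.64 ± 0.07, and its 3 probes disagreed in sign (−0.03 to 0.16).

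Itga8, the alpha subunit of an integrin of mesenchymal and smooth muscle cells, had the lowest difference of the list. It read 0.51, 0.46, 0.16 and 0.64 in controls and −0.15, 0.35, 0.34 and 0.58 in mutants, a difference of −0.16 (SE 0.17). Mutant replicate 1 was the lowest array, 0.57 below the mean of the other mutants, and without it the difference was −0.020.

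LIM and PDZ domain proteins link actin and alpha-actinin to signalling proteins. Csrp1 had means of 6.78 ± 0.26 in controls and 6.95 ± 0.17 in mutants, Pdlim3 of 3.21 ± 0.26 and 3.35 ± 0.21, Pdlim7 of 2.96 ± 0.19 and 3.14 ± 0.16, and Ldb3 of 1.48 ± 0.13 and 1.55 ± 0.19. All 4 were higher in the mutants by 0.07 to 0.18, none beyond the spread between replicates. Hspb7, a small heat-shock protein of muscle, read −1.75, −2.11, −2.95 and −1.99 in controls and −1.56, −1.74, −1.80 and −2.25 in mutants. Its difference of 0.36 (SE 0.26) was the largest of the list, and it was 0.11 without control replicate 3 and 0.02 without that array and mutant replicate 1.

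A further group covers calcium handling and membrane junctions. Pln, the inhibitor of the calcium pump of the sarcoplasmic reticulum, read −4.81, −4.61, −5.38 and −4.42 in controls and −5.08, −4.32, −3.99 and −4.53 in mutants. Mutants 2 and 3 were the highest arrays and control replicate 3 the lowest, and the difference was 0.32 (SE 0.27). Of all 31 genes Pln kept the largest difference, 0.33, once control replicate 3 and mutant replicate 1 were left out. Its probe was the dimmest of the 31, and with the authors' deposited table of intensity values its difference was 0.065. Jph2, a junctophilin that holds the reticulum near the cell membrane, read −2.31, −2.49, −3.09 and −2.44 in controls and −2.10, −1.91, −2.09 and −2.89 in mutants. Here mutant replicate 4 lay among the low arrays, and the difference was 0.33 (SE 0.24). Dmpk, a kinase of muscle cells, had means of 2.26 ± 0.20 and 2.32 ± 0.18.

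The transcription factors of the program varied less. Srf read 1.72, 1.82, 1.46 and 1.82 in controls and 1.99, 1.62, 1.66 and 1.93 in mutants (difference 0.093, SE 0.13). Myocd, its coactivator restricted to muscle, read 0.10, 0.40, −0.045 and 0.23 in controls and 0.36, 0.29, 0.12 and 0.22 in mutants (difference 0.076, SE 0.12). The groups overlapped throughout for both genes. Aoc3, an amine oxidase on the surface of smooth muscle cells and adipocytes, had means of 1.15 ± 0.27 in controls and 1.26 ± 0.30 in mutants.

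What most of the 31 genes shared was a low control replicate 3 and a high mutant replicate 1. The mean level of the 31 was 2.60, 2.66, 2.19 and 2.69 in controls 1 to 4. It was 2.83, 2.67, 2.63 and 2.55 in mutants 1 to 4. Control replicate 3 was below each other control for 28 of the 31 genes (90.3%), against 26.4% of all genes tested, and the median gap to the mean of the other controls was −0.45, against 0.01 over all genes. The only genes not below that mean were Dstn and Ldb3. Mutant replicate 1 was above the mean of the other mutants for 27 of the 31, with a median gap of 0.30, against 0.19 over all genes; the exceptions were Pln, Cald1, Itga8 and Synpo2. That array was the highest of the 8 for 24 of the 31 genes and for 45.6% of all genes.

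The pattern held over more than the chosen probes. Of the 51 probes that read these genes, control replicate 3 was the lowest control on 42 and mutant replicate 1 the highest mutant on 41. The 51 include the 31 chosen probes, for which the counts were 28 and 26. Over all genes tested the shares were 26.4% and 54.6%. The median SD of the controls over the 31 genes was 0.26, and it was 0.081 without replicate 3; over all genes the same values were 0.14 and 0.12. For the mutants the SD was 0.19, and 0.092 without replicate 1, against 0.22 and 0.13 over all genes. The 4 genes that were low in mutant replicate 1 were all read by probes with 35.0% G and C, while Aoc3 and Synm, read by probes of the same composition, were high there; the part of base composition was not tested.

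**Figure D3:**
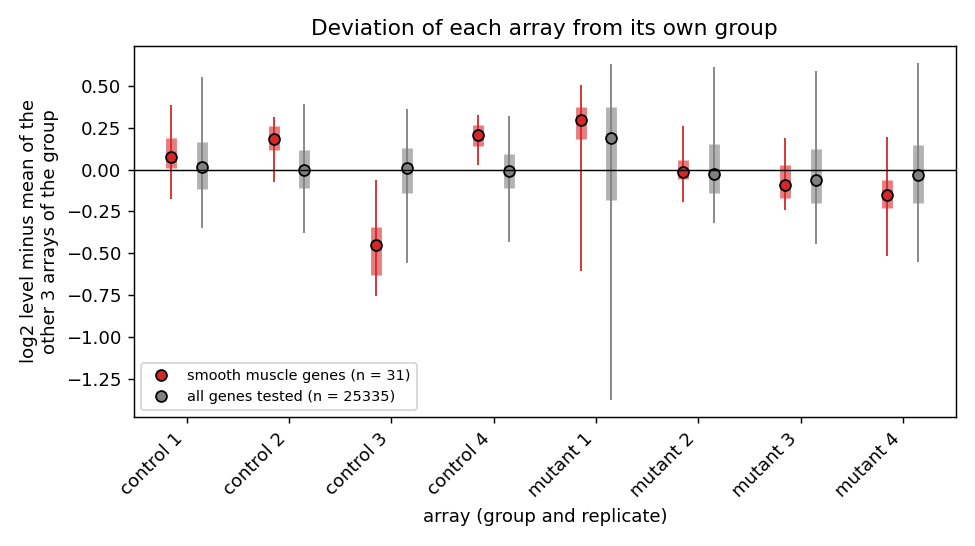
Gap between each array and the mean of the other 3 arrays of its group (log2, vertical axis) for the 31 smooth muscle genes (red) and all 25335 genes tested (grey); points are medians, thick bars the 25th to 75th percentile and thin lines the 5th to 95th percentile of genes. The smooth muscle genes lie low in control 3 (median −0.45), where the median of all genes is 0.01.

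**Figure D4:**
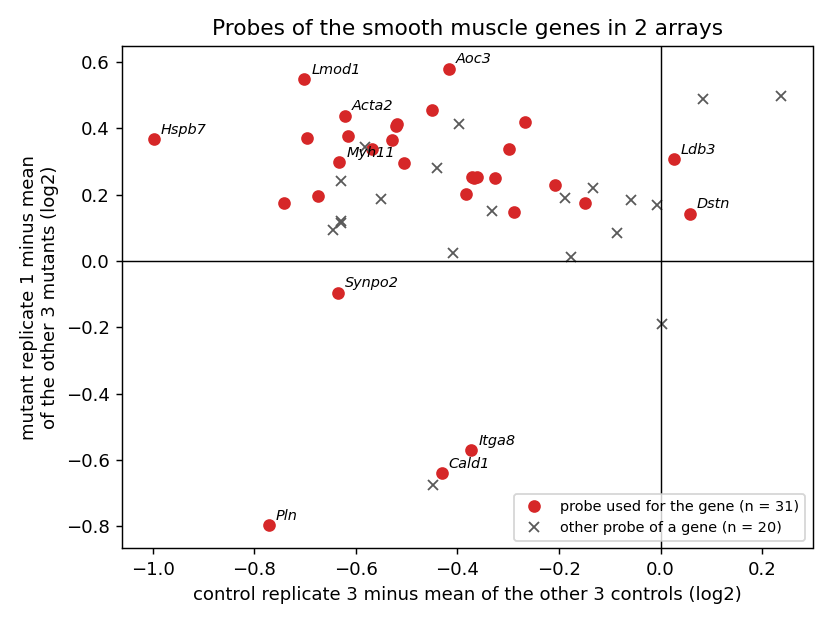
Each point is a probe of a smooth muscle gene, placed by control replicate 3 minus the mean of the other controls (horizontal, log2) and mutant replicate 1 minus the mean of the other mutants (vertical, log2). Most points sit in the upper left, low in control 3 and high in mutant 1, and Pln, Cald1 and Itga8 sit in the lower left.

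The rows of the slide, which each held 2 controls and 2 mutants, gave similar medians when taken alone. In the row with mutant replicate 1 it was 0.14, with 27 of 31 genes higher, and in the row with control replicate 3 it was 0.16, with 28 of 31 higher; over all genes the medians were 0.074 and 0.0036. Each row held 1 of the arrays that stand apart. Leaving out control replicate 3 alone gave a median of 0.029 with 24 of 31 higher, and leaving out mutant replicate 1 alone gave 0.073 with 25 of 31 higher. Without both, 49.6% of all genes were higher in the mutants.

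Other genes of smooth muscle function, from lists of related genes, were examined beside the 31. Of 22 tested genes of excitation and calcium coupling (channels, pumps, muscarinic receptors, myosin phosphatase) 12 were higher and 10 lower, with a median of 0.0076. Of 29 genes of actomyosin and adhesion 20 were higher and 9 lower, with a median of 0.064. Of 17 regulators, which include the myocardin-related factors and gut mesenchyme factors, 9 were higher and 8 lower, with a median of 0.023. None of these genes passed the test in either direction (limma, adjusted p of at least 0.822), and 1 gene, Fhl2, had an unadjusted p under 0.05. Cacna1c and Barx1 were not tested because their probes were too dim.

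Groups did not overlap for 2 of the 68 related genes tested (2.94%), against 4.66% of all genes. Fhl2, a LIM protein that binds Srf, read 2.90, 3.05, 2.88 and 3.02 in controls and 3.47, 3.10, 3.07 and 3.29 in mutants (difference 0.27, SE 0.11, limma adjusted p = 0.822). Tln1, which links integrins to actin, lay between 4.62 and 4.73 in controls and between 4.74 and 5.21 in mutants, and its difference was 0.17 (SE 0.12). Mutant replicate 1 was the highest array for both. The largest difference within each list was that of Rock1 (−0.50) for excitation and calcium coupling, Nexn (−0.54) for actomyosin and adhesion and Hey2 (−0.29) for regulators, and in each of these genes the lowest value was that of mutant replicate 1.

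Markers of other cells, of the gut wall and of neighbouring tissue, showed which lists had a similar gap. Beside the −0.45 of the smooth muscle genes, the median gap of control replicate 3 to its group was −0.65 for mesothelium, −0.56 for striated muscle, −0.48 for enteric neurons and glia, −0.37 for fibroblasts and −0.32 for interstitial cells of Cajal, the pacemaker cells of gut muscle. It was −0.060 for pericytes, 0.09 for endothelium and 0.07 for epithelium. Enteric neuron and glia markers were below the other controls in 9 of 9 genes. For mutant replicate 1 the gap was above 0 for each of these lists and ranged from 0.17 to 0.40. The gap of that array was 0.19 over all genes tested and 0.30 for the smooth muscle genes. It was 0.33 for epithelium and 0.31 for endothelium, and 0.19 for pericytes and 0.17 for interstitial cells of Cajal. The summed level of the fibroblast markers ran from 185 to 246 in controls and from 207 to 251 in mutants, where 1 unit is the 75th percentile of the array. That of the enteric neuron and glia markers ran from 8.30 to 12.8 and from 10.2 to 12.8. The part of these cells in the smooth muscle values was not tested.

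**Figure D5:**
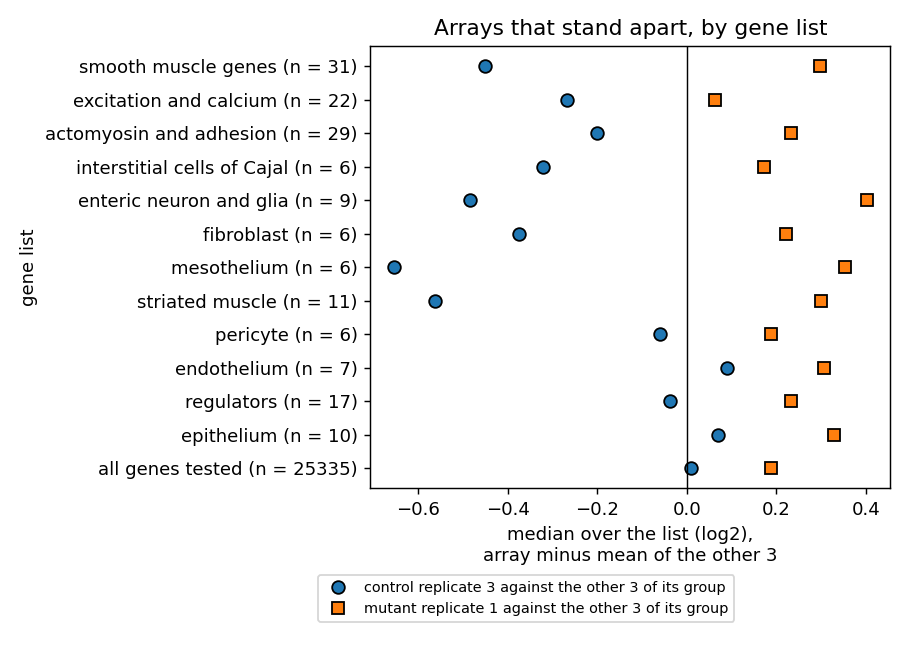
Median gap (log2) of control replicate 3 (circles) and mutant replicate 1 (squares) to the mean of the other 3 arrays of their group, for the smooth muscle genes and other gene lists; n is the number of genes tested. In control 3 the circles of the upper 8 lists lie between −0.65 and −0.20, and those of pericyte, endothelium, regulators, epithelium and all genes lie between −0.060 and 0.09.

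No marker of another cell type passed the test between groups in the fit used throughout. The median difference was 0.17 for endothelium, with 7 of 7 genes higher in the mutants, against 0.15 for the smooth muscle genes. It was 0.14 for mesothelium (4 of 6 higher) and 0.13 for striated muscle (8 of 11). It was 0.091 for enteric neurons and glia (5 of 9) and 0.078 for interstitial cells of Cajal (4 of 6). For epithelium it was 0.025 (6 of 10), for fibroblasts 0.014 (3 of 6) and for pericytes −0.039 (2 of 6). Outside the pancreatic acinus, the larger differences in those lists included Myh3 (0.50), Lrrn4 (0.35), Kit (0.25), Cldn5 (0.24), Rgs5 (−0.23), Cdh1 (−0.22) and Dcn (−0.14). Markers of the pancreatic acinus, tissue that lies next to the duodenum, differed by more. All 6 tested were higher in the mutants, by 1.02 to 6.09. Groups did not overlap for 3 of the 6, against 4.66% of all genes. The 3 were Amy2a5 (difference 6.09, limma adjusted p = 0.15), Cela2a (3.95, 0.114) and Cel (1.02, 0.487). With the slide row as a block, Amy2a5 (limma adjusted p = 0.0238) and Cela2a (0.0196) passed the test, and with normexp background correction Amy2a5 did (0.0290). All 3 means were higher in the mutants, and Cela2a was well above background on 0 of the 4 controls. Their part in the smooth muscle values was not tested. In control replicate 3 the acinar list had a median gap of 0.58 and in mutant replicate 1 of −0.43, opposite in sign to the smooth muscle genes on both arrays. Mutant replicate 1 was a middle array for the acinar genes. Mutant replicate 2 was the lowest mutant and mutant replicate 4 the highest for all 6.

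The genes outside the list that tracked its mean most closely over the 8 arrays were Crispld2 (Pearson r = 0.990), a transcript named only by its interval on chromosome 1 (r = 0.986), Pgm5 (r = 0.985), Nkain4 (r = 0.981) and Gdap1l1 (r = 0.977). Pgm5 also belongs to the related list of actomyosin and adhesion. Spearman coefficients of the 5 genes were 0.81 to 0.93. These values describe 8 points that share their arrays. Without control replicate 3 and mutant replicate 1 the 5 coefficients were 0.64 to 0.79, so part of the closeness rested on those arrays. In all, 158 of 25304 genes had r above 0.9. None of the 5 differed between groups (limma adjusted p from 0.822 to 0.847).

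Srf binds a short element known as the CArG box, in which CC and GG flank 6 A or T bases. This element was searched for near the starts of the 31 genes. RefSeq windows of 300 bases (250 before and 50 after each annotated start, build GRCm38.p6) were found for 26 of the 31 genes; no window was used for Actg2, Tagln, Myh11, Myocd and Aoc3. The element, whose definition is the same on either strand, was in the window of 5 of the 26 genes (19.2%), against 1.81% of 27025 genes with a window. The 5 were Myl9, Cnn2, Vcl, Ldb3 and Srf itself. The list holds genes known to be controlled by Srf, so the choice of genes alone can give a higher share. Its relation to the array pattern was not tested. A match describes letters and not a site in use, and genes without one may hold it elsewhere. The stretches around the elements are shown 5′ to 3′ on the strand of the gene, with the element in capitals.
Myl9, chr2:156775263-156775352, plus strand, element starting 161 bases before the start: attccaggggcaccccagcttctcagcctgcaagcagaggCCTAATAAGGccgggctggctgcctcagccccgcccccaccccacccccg
Cnn2, chr10:79988504-79988593, plus strand, 56 bases before: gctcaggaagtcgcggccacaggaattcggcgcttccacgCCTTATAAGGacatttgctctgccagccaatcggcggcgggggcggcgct
Vcl, chr14:20929148-20929220, plus strand, 227 bases before: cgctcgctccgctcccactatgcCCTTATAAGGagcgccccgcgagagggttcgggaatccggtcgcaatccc
Ldb3, chr14:34588682-34588756, minus strand, 35 bases before 1 of its starts and 109 before another: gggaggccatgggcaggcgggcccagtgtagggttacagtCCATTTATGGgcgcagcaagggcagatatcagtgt
Srf, chr17:46556175-46556284, minus strand, elements 82 and 62 bases before: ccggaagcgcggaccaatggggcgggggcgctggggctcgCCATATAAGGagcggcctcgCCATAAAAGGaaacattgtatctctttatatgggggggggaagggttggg

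The 5 genes with an element ranged widely in the gap seen in control replicate 3. That array was 0.53 below the other controls for Myl9, 0.21 for Cnn2, 0.15 for Vcl and 0.33 for Srf, and 0.03 above them for Ldb3. Differences between groups ranged from 0.04 for Vcl to 0.16 for Myl9.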

How the data were processed

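The smooth muscle genes and all other gene lists were chosen with earlier results of these data known. Labels gave 4 control and 4 mutant samples, without stating litters, so p-values measure the spread between these samples. Per the labels' protocols the input was 100 ng of total RNA, labelled with 1 dye. Per the file headers the authors read 1 slide with Agilent Feature Extraction 10.10.1.1. The processed intensities it gave were linear, background-corrected within each array and not scaled between arrays. The authors' deposited table of intensity values had the same median, 123.313, on every array, so that table was scaled between arrays. Whether its values were background-corrected was not tested.

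Here the log2 processed intensity minus each array's 75th percentile was used. Control and outlier spots were left out, spots of a probe averaged, and probes tested where at least 50% of spots were well above background on at least 4 of 8 arrays. The brightest probe stood for a gene. The comparison used limma 3.58.1 (R 4.3.3, two-sided, Benjamini-Hochberg over 25335 genes, threshold 0.05). It was tested on simulated data with independent errors and effects larger than any difference of the smooth muscle genes. The simulation held no array that stands apart over many genes, so it does not bear on that setting. Text names every listed gene, Rfx6, in other lists those without overlap and the largest difference, and the 5 closest correlates; 1 gene that this rule names is not reported here. Alternatives changed background correction, scaling (including the authors' deposited table of intensity values), filter, probe choice, blocks, weights and arrays. The same replicate numbers did not pair samples (correlations of deviations −0.092 to 0.091).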

Additional observations from a re-analysis of the deposited data

Results flagged for a closer look

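Dixon's test was applied to 98 groups of 4 arrays (each smooth muscle gene, list mean and array measure in controls or mutants). In 14 groups an array had a gap to its neighbour above the 95% critical value. Chance exceeds that value in about 1 in 20 groups when groups are independent. These groups shared their arrays, and most smooth muscle genes moved together, so 1 shifted array could be flagged many times. The count of 14 therefore cannot be compared with the chance rate. Control replicate 3 was the flagged array in 7 groups and mutant replicate 1 in 6. Control replicate 3 was flagged for the mean level of the smooth muscle genes, at 2.19 against 2.60 to 2.69 in the other controls. The genes concerned were Acta2 at 5.93 (others 6.48 to 6.59), Actg2 at 6.44 (6.94 to 6.98), Tpm2 at 4.25 (4.92 to 5.0), Flna at 5.65 (6.0 to 6.07), Myh11 at 2.78 (3.38 to 3.43) and Pdlim3 at 2.82 (3.29 to 3.38). For Dstn it was control replicate 2, at 4.69 (4.85 to 4.86).

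Mutant replicate 1 stood apart for Tagln at 6.51 (other mutants 6.05 to 6.07), Pdlim3 at 3.66 (3.23 to 3.28) and Rfx6 at −5.52 (−3.37 to −3.02). It also stood apart in the mean level of the regulators, at 0.69 (0.50 to 0.52), and of the endothelial markers, at 0.76 (0.47 to 0.48), and in its mean correlation with the other arrays, at 0.978 (0.990 to 0.991). The cause was not tested.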

How the results depend on the processing

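None of the 31 smooth muscle genes was called under any of 18 other settings, or under the 1 added after seeing the data (lowest limma adjusted p 0.535). The count of all genes called, 15, was 27 with normexp background correction, 43 with array weights (where mutant replicate 1 had weight 0.117), 23 without control replicate 3 and mutant replicate 1, and 10 to 22 with single replicates left out. Genes called in the related and cell type lists, 0 otherwise, were 1 with normexp (Amy2a5), 2 with the slide row as a block (Amy2a5 and Cela2a), and 0 to 1 with single replicates left out (Amy2a5 without control replicate 3, Cela2a without mutant replicate 4). The median difference of the smooth muscle genes, 0.15, ranged from 0.029 to 0.21 with single replicates left out. It was 0.045 with array weights, 0.082 with quantile normalization, and −0.039 without control replicate 3 and mutant replicate 1.

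With the replicate number as a block the count of all genes called was 7 and no smooth muscle gene was called; the numbers did not pair the samples.

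Single genes whose difference changed sign, none of them called, were as follows. With quantile normalization, Flna was −0.0033. With median scaling, the values were Cald1 0.00044 and Dstn 0.010. With the authors' deposited table, Flna was −0.0089. With the mean of all probes of a gene, Synpo2 was 0.035. With array weights, the values were Cald1 0.095, Tpm1 −0.011, Synm −0.0047, Vcl −0.0039, Pdlim3 −0.0083, Dmpk −0.015, Srf −0.055 and Aoc3 −0.11. With arrays left out (each replicate in turn, and control replicate 3 together with mutant replicate 1), the lowest and highest differences of the genes that changed sign were as follows: Dstn −0.047 to 0.039, Synpo2 −0.18 to 0.077, Cald1 −0.12 to 0.15, Tpm1 −0.093 to 0.12, Flna −0.066 to 0.13, Synm −0.18 to 0.15, Dmpk −0.089 to 0.14, Vcl −0.039 to 0.085, Ldb3 −0.0036 to 0.15, Aoc3 −0.14 to 0.20, Acta2 −0.062 to 0.27, Actg2 −0.056 to 0.23, Cnn1 −0.017 to 0.32, Tpm2 −0.084 to 0.26, Smtn −0.068 to 0.17, Lmod1 −0.11 to 0.32, Myh11 −0.020 to 0.27, Myl9 −0.059 to 0.23, Des −0.034 to 0.26, Csrp1 −0.036 to 0.23, Pdlim3 −0.094 to 0.20, Srf −0.051 to 0.15 and Myocd −0.034 to 0.15. For most of these genes the lowest value was the one without control replicate 3 and mutant replicate 1. The cause was not tested.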
